A study of Mus musculus with 24 samples.

Results

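The 10 genes described here build the cornified envelope of stratified epithelium or are switched on late in keratinocyte differentiation. They are Krtdap, Ivl, Scel, Sprr1a, Sprr1b, Sprr2d, Calm4, Abca12, Asprv1 and Casp14. They were chosen by symbol, and every probe set annotated to 1 of these symbols alone was taken, which gave 13 probe sets of 45101 on the array. Of these, 12 passed a filter on low values, and all 10 genes were tested, each through 1 probe set, among 13485 genes.

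Their levels were measured on 24 expression arrays of mouse cells. The tumours were 5 mammary adenocarcinomas of C57BL6/J mice heterozygous for the allele 1572T (Apc+/1572T), here A to E, and the controls were 3 pools of glands of C57BL6/J Apc+/+ mice, here F to H. The allele makes a truncated form of Apc, a negative regulator of Wnt signalling. From each tumour and each pool came 3 arrays, of 10000 cells each: the lineage-negative fraction (Lin-), and within it the CD29+CD24+ gate, which the study treats as the differentiated counterpart, and the CD29hiCD24+ gate, which it treats as enriched for stem cells. The study set out to compare tumour with normal CD29hiCD24+ cells, and each of these with its CD29+CD24+ counterpart. The labels give no age and no number of animals in a pool, and do not say how many mice the tumours came from. A gate is defined by surface proteins, so a sorted fraction can hold several cell types.

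In skin, keratinocytes leave the basal layer, pass through spinous and granular layers and end as dead, flattened corneocytes. During the last steps a sheath of crosslinked protein, the cornified envelope, forms beneath the plasma membrane: involucrin and sciellin are laid down early, small proline-rich proteins act as crossbridges, and transglutaminases join them. Lipids secreted from lamellar granules seal the outside, while proteases and a caspase process filaggrin. Mammary epithelium does not normally cornify, but mammary tumours with activated Wnt signalling are known to contain squamous areas. The genes are given below in an order from spinous to cornifying cells taken from textbook knowledge: Krtdap, Ivl, Scel, Sprr1a, Sprr1b, Sprr2d, Calm4, Abca12, Asprv1, Casp14.

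All values are log2 signals, so that a difference of 1 is a 2-fold difference. A call means a Benjamini-Hochberg adjusted p under 0.05 in limma over all genes tested. The lowest 40% of all values lay at or under 2.83, called the low band here, where signals have no usable order and from where differences are compressed. A sorted sample with fewer cells of a type and one with less RNA per cell cannot be told apart. Array medians ran from 3.26 to 3.41, and the gap between the actin control probe sets at the 3' and 5' ends, which widens with shortened RNA, from 1.41 to 2.89. The number of arrays limits the precision.

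In tumours, 9 of the 10 genes had their highest group mean in the Lin- fraction and their lowest in the CD29hiCD24+ gate, and Ivl had its highest mean in the latter. Ivl and Sprr2d were called between no tumour populations. Against normal cells the tumour levels were higher for 9 of 10 genes in each of the 3 populations, where 15.6%, 16.4% and 13.9% of all genes were called higher (CD29hiCD24+, CD29+CD24+, Lin-), by up to 10.60 on the log2 scale for Krtdap. Casp14, the last of the series, was the one gene that stayed in the low band in all 5 tumour CD29hiCD24+ arrays while it was above it in all 10 other tumour arrays.

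**Figure D1:**
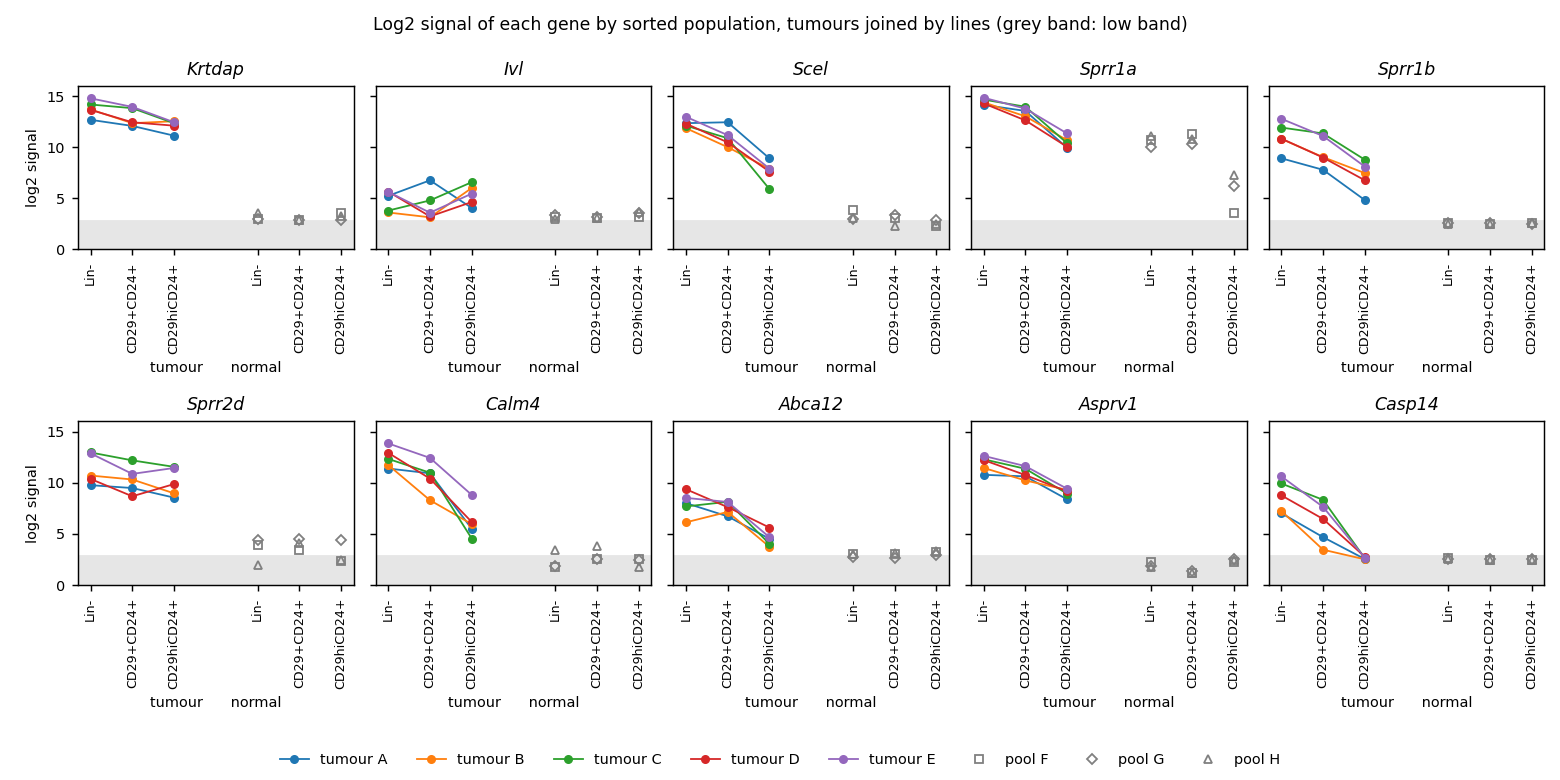
Log2 signal (vertical axis) of each of the 10 genes in every array, with the Lin-, CD29+CD24+ and CD29hiCD24+ populations along the horizontal axis, tumours A to E as filled points joined by a line for each tumour, pools F to H as open grey symbols, and the low band at or under 2.83 shaded. Lines fall to the right for most genes, Casp14 ends in the low band in all 5 tumours, and Sprr1a is the gene with high normal values.

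Because most of the genes moved together in the tumours, their start regions were examined in RefSeq sequence of build GRCm38.p6, and 10 of 10 had a window of 300 bases around the start site. The motif of the AP-1 factors, TGACTCA or TGAGTCA (either strand), which act in epidermal differentiation, was in 5 of the 10 windows, those of Krtdap, Ivl, Scel, Sprr1a and Sprr2d, against 5.20% of all 32851 windows of the same length. The letters TATAAA (either strand), found in many start regions, were in 5 windows, those of Krtdap, Ivl, Sprr1a, Sprr1b and Sprr2d, against 13.6% of all. The AP-2 pattern GCCNNNGGC was in 0 of the 10, against 16.6% of all windows. The grainyhead pattern AACNNGTT was in 0 of the 10 too, against 4.20% of all windows. Absence says only that these letters are not in the window. The motifs were chosen after the sequences had been seen, and a match is a description, not a binding site. Below are the stretches of 4 genes with the AP-1 letters and, for contrast, of Casp14, the last gene of the order, which has none. Each is written 5' to 3' on the gene's own strand, up to the last base before the annotated gene, with AP-1 letters in capitals. They lie at chr7:30787655-30787904 (plus strand), chr3:92573791-92573985 (minus), chr3:92485882-92486131 (minus), chr3:92338890-92339139 (plus) and chr10:78718348-78718543 (minus).
Krtdap: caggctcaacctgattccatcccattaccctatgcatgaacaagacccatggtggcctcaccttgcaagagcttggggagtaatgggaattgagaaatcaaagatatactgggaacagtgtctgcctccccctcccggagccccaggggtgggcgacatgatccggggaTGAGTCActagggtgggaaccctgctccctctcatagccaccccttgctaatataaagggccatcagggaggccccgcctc
Ivl: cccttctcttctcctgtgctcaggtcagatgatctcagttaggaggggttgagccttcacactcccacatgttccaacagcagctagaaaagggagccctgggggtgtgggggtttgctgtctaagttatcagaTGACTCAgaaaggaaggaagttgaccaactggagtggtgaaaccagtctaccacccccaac
Sprr1a: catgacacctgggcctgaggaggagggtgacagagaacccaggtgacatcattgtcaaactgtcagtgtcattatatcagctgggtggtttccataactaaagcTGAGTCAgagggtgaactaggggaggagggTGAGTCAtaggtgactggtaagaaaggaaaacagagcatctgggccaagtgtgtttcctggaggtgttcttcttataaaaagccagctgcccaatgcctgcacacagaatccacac
Sprr2d: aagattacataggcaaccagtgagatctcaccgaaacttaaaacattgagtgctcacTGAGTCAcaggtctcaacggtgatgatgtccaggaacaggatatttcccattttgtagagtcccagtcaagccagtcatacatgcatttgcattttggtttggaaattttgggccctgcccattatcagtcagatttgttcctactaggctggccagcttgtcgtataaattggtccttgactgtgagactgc
Casp14: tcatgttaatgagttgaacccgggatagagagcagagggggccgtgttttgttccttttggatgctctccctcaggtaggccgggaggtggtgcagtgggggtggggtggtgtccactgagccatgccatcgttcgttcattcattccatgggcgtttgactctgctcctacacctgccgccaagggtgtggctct

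Counted from the start site, the AP-1 letters begin at base -81 in Krtdap, -116 in Ivl, -146 and -116 in Sprr1a and -193 in Sprr2d. In Scel they begin at -36, inside the annotated gene, and are not shown. TATAAA begins at -30 in Krtdap, -29 in Ivl, -43 in Sprr1a, -30 in Sprr1b and -29 in Sprr2d. The Ivl and Casp14 stretches, of 195 and 196 bases, end before the start site, as the annotated gene begins upstream of it. The TATAAA of Ivl lies past that end and is not shown either. Of the 5 genes with the AP-1 letters, Scel and Sprr1a were called lower in tumour CD29hiCD24+ than in CD29+CD24+ cells, and of the 5 without them Calm4, Abca12, Asprv1 and Casp14 were, where 1.94% of all genes were. No test was made of this split.

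Krtdap (probe set 1434227_at, gene at chr7:30787905-30791089) encodes a small secreted protein of differentiating keratinocytes and was the gene with the smallest called loss. In tumours A to E its signal was 12.68, 13.69, 14.17, 13.65 and 14.78 in Lin- cells, 12.08, 12.35, 13.81, 12.43 and 13.94 in CD29+CD24+ cells, and 11.12, 12.53, 12.34, 12.10 and 12.44 in CD29hiCD24+ cells. The Lin- values all lay above the CD29hiCD24+ values, whereas the gates overlapped, and in tumour B CD29hiCD24+ was the higher gate. CD29hiCD24+ cells were lower than Lin- cells by a difference of -1.68 ± 0.38 (SE, adjusted p = 0.00823). Against CD29+CD24+ the difference was -0.81 ± 0.38 (adjusted p = 0.245), called only with the tumour as a fixed block (adjusted p = 0.0327). Normal arrays were at 2.86 to 3.60.

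Ivl (1439878_at, chr3:92570899-92573790) encodes involucrin, an early scaffold of the envelope, and did not follow the others. In Lin- cells of tumours A to E it read 5.24, 3.62, 3.80, 5.66 and 5.63. In CD29+CD24+ cells it read 6.76, 3.14, 4.80, 3.23 and 3.60, and in CD29hiCD24+ cells 4.05, 6.01, 6.58, 4.64 and 5.46. CD29hiCD24+ was higher than CD29+CD24+ in 4 of 5 tumours, with tumour A the other way, and the 3 groups overlapped. The difference was 1.04 ± 0.59 (adjusted p = 0.353). Without tumour A it was 1.98 (adjusted p = 0.0390). A second Ivl probe set, 1422222_at, had group means between 2.79 and 2.84, at the edge of the low band.

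Scel (1422837_at, chr14:103513061-103613346) encodes sciellin, an early envelope precursor, and fell steeply. Its signal in tumours A to E was 12.35, 11.86, 12.10, 12.30 and 12.97 in Lin- cells, 12.44, 10.001, 10.88, 10.47 and 11.18 in CD29+CD24+ cells, and 8.90, 7.89, 5.91, 7.62 and 7.91 in CD29hiCD24+ cells. Every CD29hiCD24+ array was below every other tumour array. The difference was -3.35 ± 0.45 (adjusted p = 0.000288) from CD29+CD24+, a 10.2-fold lower signal, and -4.67 ± 0.45 (adjusted p = 2.11e-06) from Lin-. Tumour C, lowest in CD29hiCD24+ cells, was not lowest elsewhere. Normal values were 2.25 to 3.82, and the second Scel probe set, 1459426_at, lay in the low band in every group.

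The small proline-rich genes, which supply the crossbridging proteins, lie with Ivl in the epidermal differentiation complex, a cluster of envelope genes. Sprr2d lies at chr3:92339140-92340873, Sprr1b at chr3:92436808-92438817 and Sprr1a at chr3:92483954-92485881, all between 92339140 and 92573790 when Ivl is counted. Members of this family are close in sequence and a probe set may take up signal from relatives, which was not tested.

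Sprr1a (1449133_at) had high signals with little spread among tumours. It read 14.14, 14.39, 14.65, 14.28 and 14.84 in Lin- cells of tumours A to E, 13.54, 13.01, 13.96, 12.62 and 13.77 in CD29+CD24+ cells, and 9.93, 10.68, 10.38, 10.03 and 11.34 in CD29hiCD24+ cells. The 3 groups did not overlap, and the order Lin- over CD29+CD24+ over CD29hiCD24+ held in 5 of 5 tumours. CD29hiCD24+ was lower than CD29+CD24+ by a difference of -2.90 ± 0.47 (adjusted p = 0.00130, 7.49-fold) and than Lin- by -3.98 ± 0.47 (adjusted p = 1.42e-05).

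Sprr1b (1422672_at) differed widely among tumours. It read 8.91, 10.81, 11.92, 10.84 and 12.78 in Lin- cells, 7.79, 9.03, 11.34, 8.99 and 11.09 in CD29+CD24+ cells, and 4.83, 7.47, 8.77, 6.76 and 8.10 in CD29hiCD24+ cells of tumours A to E. Tumour A was lowest in all 3 populations, and within each of the 5 tumours the same order held as for Sprr1a. The gate difference of -2.46 ± 0.73 was not called (adjusted p = 0.0601), but it was with the tumour as a block, random (adjusted p = 0.00276) or fixed (adjusted p = 0.000541). Against Lin- it was -3.87 ± 0.73 (adjusted p = 0.00214).

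Sprr2d (1420771_at) kept high signals in all tumour populations. Lin- cells of tumours A to E gave 9.76, 10.70, 12.96, 10.37 and 12.87, CD29+CD24+ cells 9.48, 10.31, 12.18, 8.67 and 10.86, and CD29hiCD24+ cells 8.54, 8.96, 11.55, 9.87 and 11.44. Tumours C and E were high throughout, and the populations overlapped. The gate difference was -0.23 ± 0.77 (adjusted p = 0.956), with 3 tumours lower and 2 higher in CD29hiCD24+ cells. Against Lin- it was -1.26 ± 0.77 (adjusted p = 0.362), lower in 5 of 5 tumours and called only with the fixed block (adjusted p = 0.0223).

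Calm4 (1450633_at, chr13:3837757-3838671) encodes a calmodulin-like calcium-binding protein of differentiating keratinocytes. It read 11.39, 11.73, 12.33, 12.92 and 13.84 in Lin- cells of tumours A to E, 10.92, 8.29, 10.97, 10.40 and 12.42 in CD29+CD24+ cells, and 5.49, 5.95, 4.54, 6.16 and 8.80 in CD29hiCD24+ cells. The gates overlapped through the CD29hiCD24+ array of tumour E and the CD29+CD24+ array of tumour B, but each tumour kept the order Lin-, CD29+CD24+, CD29hiCD24+ from high to low. The differences of CD29hiCD24+ were -4.41 ± 0.72 from CD29+CD24+ (adjusted p = 0.00143) and -6.25 ± 0.72 from Lin- (adjusted p = 1.32e-05), the largest measured differences of the 10 genes, with that of Casp14 from Lin- close to it and compressed by the low band. Normal arrays were at 1.79 to 3.78.

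Abca12 (1453970_at, chr1:71243090-71414910) encodes the transporter that loads lipids into lamellar granules. In tumours A to E it read 8.004, 6.13, 7.68, 9.36 and 8.51 in Lin- cells, 6.71, 7.14, 8.13, 7.61 and 8.12 in CD29+CD24+ cells, and 4.52, 3.74, 4.02, 5.61 and 4.67 in CD29hiCD24+ cells. The CD29hiCD24+ values did not overlap the other populations, which overlapped each other, with tumours B and C higher in CD29+CD24+ than in Lin- cells. CD29hiCD24+ was lower by a difference of -3.03 ± 0.44 from CD29+CD24+ (adjusted p = 0.000732) and -3.43 ± 0.44 from Lin- (adjusted p = 4.77e-05).

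Asprv1 (1452732_at, chr6:86628174-86629710) encodes the aspartic protease SASPase, which processes filaggrin in the granular layer and stratum corneum. It read 10.77, 11.45, 12.29, 12.22 and 12.62 in Lin- cells of tumours A to E, 10.62, 10.22, 11.36, 10.75 and 11.62 in CD29+CD24+ cells, and 8.37, 9.29, 8.93, 9.15 and 9.41 in CD29hiCD24+ cells. The latter group lay under all other tumour arrays, yet it remained far above the normal arrays, which were all in the low band at 1.14 to 2.54. CD29hiCD24+ was lower by a difference of -1.89 ± 0.31 from CD29+CD24+ (adjusted p = 0.00146) and -2.84 ± 0.31 from Lin- (adjusted p = 8.15e-06), and the order of the populations held in 5 of 5 tumours.

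Casp14 (1418748_at, chr10:78711995-78718347) encodes the caspase of cornifying cells, which takes part in the breakdown of filaggrin rather than in cell death at large. Lin- cells of tumours A to E gave 7.02, 7.24, 9.92, 8.77 and 10.62, CD29+CD24+ cells 4.68, 3.45, 8.33, 6.46 and 7.64, and CD29hiCD24+ cells 2.54, 2.51, 2.62, 2.76 and 2.67. CD29hiCD24+ cells of all 5 tumours were in the low band, as were all 9 normal arrays at 2.44 to 2.62. The difference from CD29+CD24+ was -3.49 ± 0.73 (adjusted p = 0.00909), and that from Lin- -6.10 ± 0.73 (adjusted p = 1.65e-05), both compressed by the low band. With only the 2 gates fitted, the first was no longer called (adjusted p = 0.0754). A second Casp14 probe set, 1443787_x_at, had group means of 3.46 to 3.80 and did not show the difference.

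Set side by side, 6 of the 10 genes were called lower in tumour CD29hiCD24+ than in CD29+CD24+ cells, against 1.94% of all genes called lower there, and 0 were called higher. These were Scel, Sprr1a, Calm4, Abca12, Asprv1 and Casp14, and the arrays of the 2 gates overlapped only for Calm4 among them. How many of all genes had gates without overlap was not counted. With tumour or pool as a random block 7 were called, Sprr1b being added, against 6.76% of all genes, and with the tumour as a fixed block 8, Krtdap and Sprr1b being added, against 7.71% of all genes. The median difference of the 10 genes was -2.68, and that of all genes tested 0.0047.

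Against the Lin- fraction, 8 of 10 genes were lower in tumour CD29hiCD24+ cells, all but Ivl and Sprr2d, where 4.63% of all genes were called lower. With the random block these counts were 8 of 10 and 9.46%, and with the fixed block 9 of 10, Sprr2d being added, and 9.68%. None of the 8 overlapped between the populations, and the median over the 10 was -3.65. The share of all genes without overlap was not counted there. Between tumour CD29+CD24+ and Lin- cells, 0 of 10 genes were called, and 0.215% of all genes were. The differences ran from -2.61 for Casp14 to -0.39 for Abca12, with a median of -1.05. Casp14 was called with the random block (adjusted p = 0.0285, with 0.882% of all genes called lower) but not with the fixed block (adjusted p = 0.169). All 10 differences were negative, and 7 genes, Krtdap, Sprr1a, Sprr1b, Sprr2d, Calm4, Asprv1 and Casp14, were lower in CD29+CD24+ cells in 5 of 5 tumours. These genes share their arrays, and the share of all genes lower in 5 of 5 tumours was not counted.

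The order from high Lin- over CD29+CD24+ to low CD29hiCD24+ held in all 5 tumours for Sprr1a, Sprr1b, Calm4, Asprv1 and Casp14. It held in 4 of 5 for Krtdap and Scel, in 3 of 5 for Sprr2d and Abca12 and in 0 of 5 for Ivl. How often this order of populations held over all genes was not counted. Placed in the order from spinous to cornifying, the genes showed Spearman correlations between rank and difference of -0.48 for CD29hiCD24+ minus CD29+CD24+, -0.39 for CD29hiCD24+ minus Lin- and -0.32 for CD29+CD24+ minus Lin- (n = 10 genes, which share their arrays, so no test). For tumour minus normal these correlations were -0.44 in CD29hiCD24+, -0.08 in CD29+CD24+ and -0.03 in Lin- cells. The value of -0.44 includes Casp14, the last gene of the order, whose arrays in that comparison all lay in the low band. The differences between tumour populations followed the order only loosely. Scel near its start had a large loss, while Sprr2d in the middle and Asprv1 near the end had smaller ones. The rank of Casp14 rests on a compressed value.

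**Figure D2:**
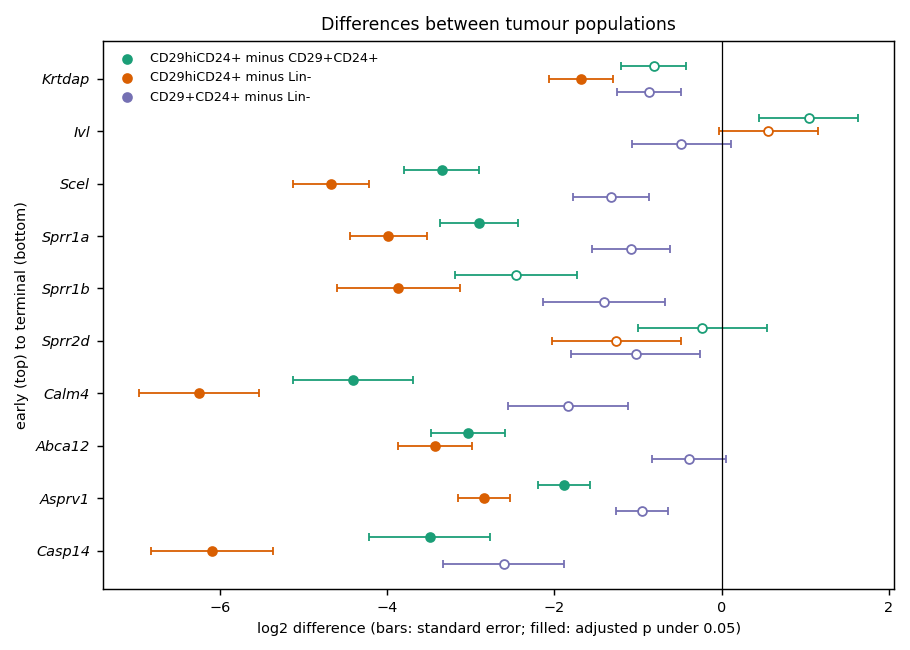
Log2 differences between tumour populations (horizontal axis, points with standard errors) for the 10 genes, ordered from early at the top to terminal at the bottom, in 5 tumours, with filled points called at an adjusted p under 0.05. Green and orange points of CD29hiCD24+ lie left of 0 for all but Ivl, reaching -6.25 for Calm4, while no purple point of CD29+CD24+ minus Lin- is filled.

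The tumours also differed from each other in a manner shared by several genes. Averaged over the 3 populations, tumour E was highest for Krtdap, Sprr1a, Calm4, Asprv1 and Casp14, with means of 13.72, 13.31, 11.69, 11.22 and 6.98. Tumour C was highest for Sprr1b at 10.68 and Sprr2d at 12.23, while tumour A was lowest for both at 7.18 and 9.26. Tumour A was also lowest for Krtdap at 11.96 and Asprv1 at 9.92, but highest for Scel at 11.23 and Ivl at 5.35. These ranks describe single tumours and were not tested. By the number in the sample descriptions, A with B, C with D, and E formed separate groups. Differences between these groups cannot be told apart from differences between the tumours.

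Over the 15 tumour arrays, which come from 5 tumours and so are not independent, Krtdap and Sprr1b had a Pearson correlation of 0.97, and of 0.95 after the mean of each population was removed. Asprv1 and Casp14 gave 0.96 and 0.83, Krtdap and Asprv1 0.90 and 0.90, and Sprr1b and Sprr2d 0.77 and 0.85. Scel followed Calm4 at 0.92, but at 0.49 with population means removed, and with Sprr1b its value went from 0.62 to -0.39. Abca12 was also weakly related to several genes once population means were removed, with 0.015 for Sprr1a, 0.19 for Sprr1b and 0.15 for Sprr2d. Its values for Casp14, Asprv1 and Calm4 were larger, at 0.51, 0.44 and 0.41. Ivl had correlations between -0.26 and 0.07 with the other 9 genes.

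**Figure D3:**
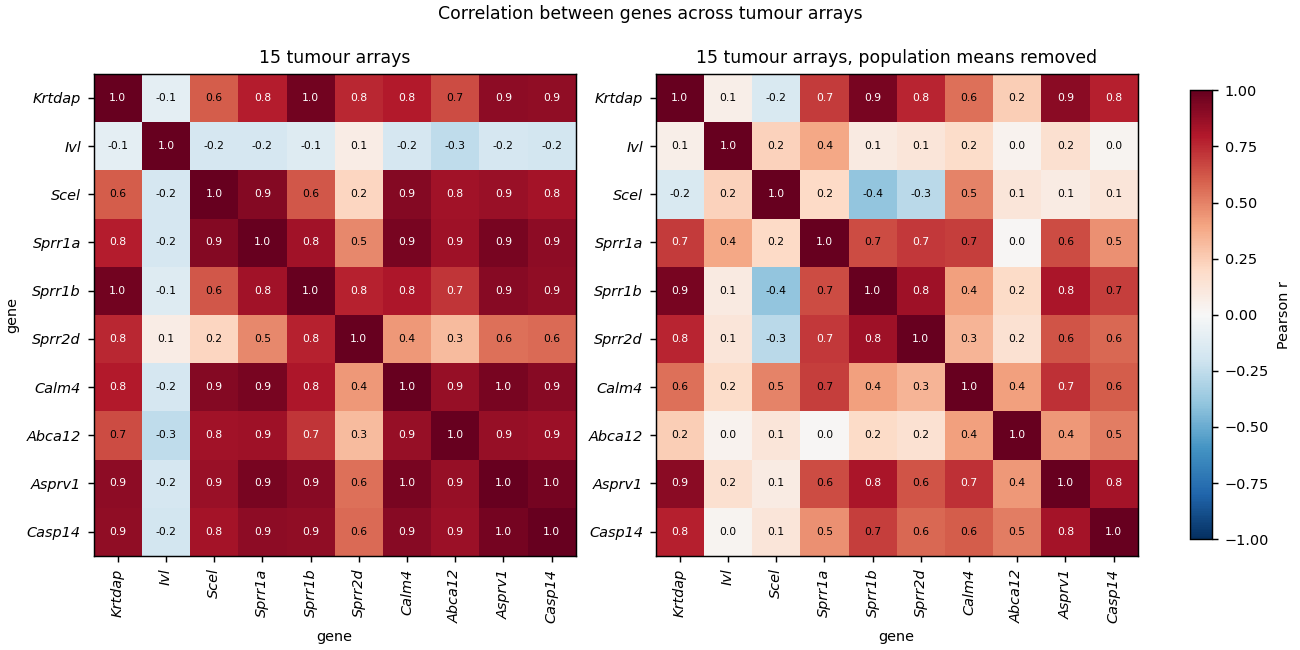
Pearson correlation between pairs of the 10 genes over 15 tumour arrays of 5 tumours (left) and with the mean of each population removed (right), with the colour scale from -1 to 1. Krtdap, Sprr1b, Asprv1 and Casp14 stay red on both sides, Scel and Abca12 turn paler on the right, and Ivl is pale in both.

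Among all other genes tested, the 10 whose profile over the 15 tumour arrays was most like the mean standardised profile of the members were Cyp4f39, Bpifc, Tgm1, Rhbg, Ephx3, Gm14137, Spint1, L1cam, Dsg1a and Ankrd22, with r from 0.956 to 0.987. Cyp4f39, a hydroxylase that makes very long acids of barrier lipids, had 0.987, and 0.945 with population means removed. Tgm1, the transglutaminase that crosslinks the envelope at the membrane, had 0.973, and 0.872. Dsg1a, a desmosomal cadherin of the upper layers, had 0.956, and 0.807. Its tumour group means ran from 10.15 in Lin- to 4.34 in CD29hiCD24+ cells. Spint1, a protease inhibitor, stood apart with 0.189 over all 24 arrays, as its normal Lin- mean of 11.01 exceeded its tumour Lin- mean of 10.60.

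Lists of other keratinocyte genes, read in tumour CD29hiCD24+ against CD29+CD24+ cells, gave the surroundings of these values. Of the spinous layer list 7 of 14 tested genes were lower and 0 higher, led by Dsc1 at -4.62 ± 0.87 (adjusted p = 0.00465) and Dsg1a at -3.66 ± 0.47 (adjusted p = 0.000191), desmosomal cadherins, and the keratin Krt10 at -3.48 ± 0.74 (adjusted p = 0.0107). Its median was -1.18. In the granular layer and cornification list only Cnfn, which encodes cornifelin, was lower of 21 tested, at -2.77 ± 0.63 (adjusted p = 0.0166), and the median was -0.16. Of its 33 genes on the array 12 did not pass the filter. Lor, for the envelope protein loricrin, and Flg, for filaggrin, named after their values were seen, had tumour means of 7.33, 7.38 and 8.04 and of 6.81, 5.69 and 3.74 in the order Lin-, CD29+CD24+, CD29hiCD24+, with gate differences of 0.66 (adjusted p = 0.274) and -1.95 (adjusted p = 0.216).

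Enzymes that finish the envelope and the barrier gave further calls. Of 3 tested transglutaminases 2 were lower, Tgm5 at -2.56 ± 0.40 (adjusted p = 0.00109) and Tgm1 at -2.25 ± 0.34 (adjusted p = 0.000794). Of 16 desquamation proteases and inhibitors 5 were lower, led by the membrane protease Tmprss4 at -3.02, the cystatin Cst6 at -2.87 and the kallikrein Klk13 at -2.55 (adjusted p = 0.00181, 0.00354 and 0.00531). Of 20 barrier lipid genes 3 were lower, Cyp4f39 at -2.23, the lipase Lipm at -2.20 and the ceramide synthase Cers3 at -1.53 (adjusted p = 0.0230, 0.00559 and 0.0417).

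Transcriptional and other regulators were also listed. Of 24 keratinocyte differentiation regulators 4 were lower and 0 higher, among them Zfp750 at -1.81, Hopx at -1.69 and Grhl3 at -1.58 (adjusted p = 0.0337, 0.00724 and 0.0358), and the median of the list was -0.14. In the list of calcium sensing and binding genes, Calml3 alone of 11 was lower, at -2.49 ± 0.53 (adjusted p = 0.0110). Of the basal keratinocyte list only Itgb4, a hemidesmosome integrin, was called of 10, higher at 1.30 ± 0.29 (adjusted p = 0.0140). Wound-type keratins gave 0 calls of 5, with Krt6a at 0.06 and Krt16 at -0.59 (adjusted p = 0.985 and 0.266).

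Against Lin- cells, the CD29hiCD24+ cells were lower for 9 of 14 spinous, 4 of 21 granular, 2 of 3 transglutaminase, 6 of 16 protease, 10 of 20 lipid, 5 of 24 regulator, 1 of 11 calcium and 1 of 5 wound-keratin genes, and higher for 2 of 10 basal genes. Of all genes 4.63% were lower and 3.74% higher in that comparison, and 1.94% and 2.25% between the gates. In CD29+CD24+ against Lin- cells only Cnfn at -3.11 (adjusted p = 0.0449) and Cst6 at -3.14 (adjusted p = 0.0173) of these lists were called. The lists were drawn up with earlier results of these data known.

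**Figure D4:**
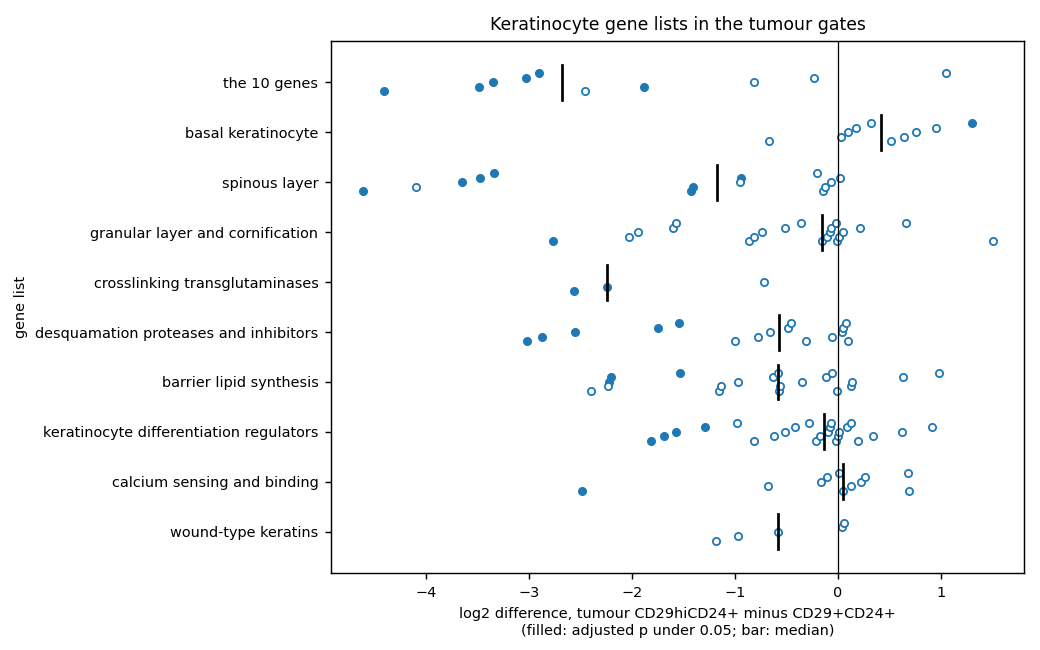
Log2 difference between tumour CD29hiCD24+ and CD29+CD24+ cells (horizontal axis) for each tested gene of 10 lists (vertical axis), with filled points called at an adjusted p under 0.05 and a bar at the median of each list, from 5 tumours. The bar of the 10 genes lies at -2.68 and that of the spinous list at -1.18, while the basal keratinocyte bar lies at 0.42.

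Markers of other cells moved with some of these comparisons, and their part in the results was not tested. In tumour CD29hiCD24+ against CD29+CD24+ cells, 2 of 8 basal mammary genes were higher (Acta2 at 3.80 and Cnn1 at 2.73), 1 of 8 luminal genes was lower (Elf5 at -2.88) and 1 of 9 proliferation genes was higher (Plk1 at 2.06). The mean over the proliferation list ran from 7.60 to 9.58 in CD29hiCD24+, from 6.34 to 7.76 in CD29+CD24+ and from 5.93 to 7.16 in Lin- arrays. Calls in the leukocyte, endothelial and fibroblast lists numbered 0 there. Against Lin- cells, however, all 8 fibroblast genes and 1 of 7 endothelial genes were lower in CD29hiCD24+ cells, and 7 of 9 proliferation genes were higher. The fibroblast list mean ran from 5.97 to 10.74 in tumour Lin- and from 4.46 to 5.75 in tumour CD29hiCD24+ arrays.

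Contaminants from hair, pigment cells and sebaceous glands were checked through their own genes. Skin epidermis could not be checked in this way, since its genes are the 10 and the keratinocyte lists themselves. The hair follicle and shaft list had means of 3.18 to 3.48 in tumour arrays, with 10 to 12 of 19 genes in the low band in each tumour population, among them Krt27, Krt71, Krt31 and Krt35, although Tchh was higher in CD29hiCD24+ than in CD29+CD24+ cells at 1.40 (adjusted p = 0.00151). In normal arrays the means of this list were 3.02 to 3.178, all under the lowest tumour mean of 3.184. In each normal population 12 to 13 of its genes were in the low band. Of the melanocyte list Dct, Tyrp1, Pmel and Mlana, and of the sebaceous list Scd3, Mc5r and Elovl3, were in the low band in every tumour population. The other genes of these lists were not. Scd1, a lipid desaturase that many tissues express, had tumour means of 12.04, 11.99 and 11.60 in Lin-, CD29+CD24+ and CD29hiCD24+ cells, and Mitf, a transcription factor of melanocytes and other cells, had 7.65, 7.56 and 7.12. Both were called higher in tumour than in normal cells in all 3 populations, Scd1 by 0.93, 0.77 and 2.35 and Mitf by 1.63, 2.51 and 1.35. The luminal mammary list mean was 6.87 to 11.70 in tumour arrays against 12.96 to 13.37 in normal Lin- and CD29+CD24+ arrays. Itgb1, which encodes CD29, had tumour means of 9.98, 10.16 and 10.76 in Lin-, CD29+CD24+ and CD29hiCD24+ cells, and Krt14, a basal keratin, had 14.71, 14.64 and 14.67.

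Tumour cells were next compared with normal cells of the same population. In the CD29hiCD24+ gate 9 of 10 genes were higher in tumours, against 15.6% of all genes called higher. Krtdap was higher by 8.86 ± 0.44 (adjusted p = 2.77e-12), Sprr2d by 7.02 ± 0.89 (adjusted p = 3.19e-06) and Asprv1 by 6.60 ± 0.36 (adjusted p = 8.88e-12), each from low normal levels. Scel was higher by 5.13, Sprr1a by 4.78, Sprr1b by 4.64 and Calm4 by 3.94. Abca12 at 1.36 ± 0.51 (adjusted p = 0.0409) and Ivl at 1.89 ± 0.68 (adjusted p = 0.0329) were called by small margins, and Ivl was not with the random block (adjusted p = 0.0650). Casp14 lay in the low band on both sides, and no fold is given.

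Lists of other cell types differed as much in the same comparison, and their part in these results was not tested. In CD29hiCD24+ cells of tumours against normal glands, 7 of 7 endothelial genes were lower (median -5.25), 6 of 8 basal mammary genes were lower and 1 higher (median -5.40), 4 of 8 luminal genes were lower (median -2.79) and 9 of 9 proliferation genes were higher (median 4.23). The median of the 10 cornification genes was 4.71 there. In CD29+CD24+ cells 7 of 8 luminal genes were lower (median -3.44) and 7 of 9 proliferation genes higher (median 3.62). In Lin- cells 7 of 8 luminal and 6 of 8 basal mammary genes were lower (medians -4.60 and -3.78), and 7 of 9 proliferation genes were higher (median 3.22). Of all genes 22.9%, 27.1% and 26.6% were called lower in CD29hiCD24+, CD29+CD24+ and Lin- cells. Called higher were 15.6%, 16.4% and 13.9%.

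The normal CD29hiCD24+ array of pool F stood apart, with the highest leukocyte list mean of its group at 6.64 and the highest endothelial one at 9.28, against 3.05 and 7.20 as the group's medians. Without pool F 7 of 10 genes were called higher, since Ivl at 1.74 (adjusted p = 0.131) and Abca12 at 1.40 (adjusted p = 0.107) were lost. Leaving out tumour A or D, or pool G or H, or tumour E also ended the call of Abca12, and leaving out tumour B, C or E or any pool ended that of Ivl. Sprr1a without pool F was higher by 3.74, and the other 6 differences kept their calls.

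In the CD29+CD24+ gate 9 of 10 genes were higher in tumours, against 16.4% of all genes. The differences were 10.03 for Krtdap, 9.68 for Asprv1, 8.08 for Scel, 7.64 for Calm4, 7.12 for Sprr1b, 6.31 for Sprr2d, 4.59 for Abca12, 3.62 for Casp14 and 2.59 for Sprr1a, with adjusted p of 0.00134 or less. Ivl at 1.18 ± 0.68 was not called (adjusted p = 0.182). In the Lin- fraction 9 of 10 were higher, against 13.9% of all genes, with 10.60 for Krtdap, 10.11 for Calm4, 9.89 for Asprv1, 9.01 for Scel, 8.52 for Sprr1b, 7.90 for Sprr2d, 6.14 for Casp14, 5.02 for Abca12 and 3.87 for Sprr1a. Ivl at 1.63 ± 0.68 missed the threshold (adjusted p = 0.0624), and passed it without tumour A, B or C (adjusted p = 0.0249, 0.0334 and 0.0403). The medians over the 10 genes were 4.71, 6.72 and 8.21 in CD29hiCD24+, CD29+CD24+ and Lin- cells, against -0.01, -0.01 and -0.08 over all genes. The 3 comparisons share no array, but they share tumours and pools. In normal CD29+CD24+ and Lin- cells all arrays of Asprv1, Sprr1b and Casp14 lay in the low band, and 2 of 3 did for Calm4. The differences of these genes are compressed, and the medians include them.

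**Figure D5:**
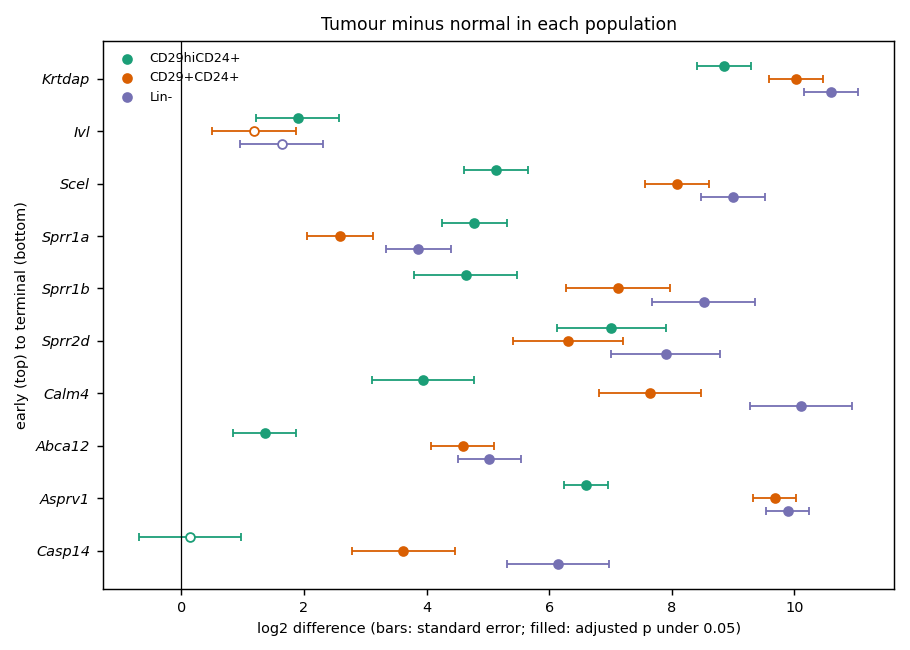
Tumour minus normal log2 differences (horizontal axis, points with standard errors) of the 10 genes, from early at the top to terminal at the bottom, in 5 tumours against 3 pools for each of the 3 populations, with filled points called at an adjusted p under 0.05. Krtdap is right of 8 in all 3 populations, Casp14 is at 6.14 in Lin- cells, its CD29hiCD24+ point near 0 comes from arrays that all lie in the low band, and the Sprr1a difference is largest in CD29hiCD24+ cells, though not without pool F, where it is 3.74 against 3.90 in Lin- cells.

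In normal glands the genes were near the low band, with Sprr1a as the exception. It read 10.66, 10.03 and 11.08 in Lin- cells of pools F, G and H, 11.26, 10.32 and 10.80 in CD29+CD24+ cells, and 3.61, 6.18 and 7.29 in CD29hiCD24+ cells. All 3 pools were far lower in CD29hiCD24+ cells, by -7.65, -4.14 and -3.51 against their CD29+CD24+ cells, pool F the most. The difference was -5.10 ± 0.60 (adjusted p = 6.57e-07) from CD29+CD24+ and -4.90 ± 0.60 (adjusted p = 2.70e-06) from Lin- cells. Calls among the 10 genes numbered 2 in normal CD29hiCD24+ against CD29+CD24+ cells, where 46.6% of all genes were called, 1 against Lin- cells (40.2% of all genes) and 0 between CD29+CD24+ and Lin- cells (4.19%). The other call was Asprv1, higher by 1.19 ± 0.40 (adjusted p = 0.0177), but its normal values of 1.14 to 2.54 all lay in the low band, and the call was lost without any 1 of the 3 pools.

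Whether the gate difference itself differed between tumour and normal was tested with an interaction term, for which 42% of all genes were called in either direction. The 6 calls among the 10 genes are not far from that share. By direction, 19.8% of all genes were called lower and 22.2% higher, against 5 and 1 of the 10 genes. Of the 10 genes 5 had a more negative gate difference in tumours: Calm4 by -3.70 ± 1.17 (adjusted p = 0.0149), Casp14 by -3.48 ± 1.19 (adjusted p = 0.0228), Abca12 by -3.23 ± 0.72 (adjusted p = 0.00124), Asprv1 by -3.08 ± 0.50 (adjusted p = 6.18e-05) and Scel by -2.95 ± 0.74 (adjusted p = 0.00297). Normal levels of these genes were in or near the low band in both gates. The calls of Calm4 and Casp14 were lost without pool F (adjusted p = 0.0852 and 0.0807) and without pool G (adjusted p = 0.0685 and 0.0748), and that of Casp14 also without pool H (adjusted p = 0.0756). With the random block Krtdap at -1.17 (adjusted p = 0.0382) and Sprr1b at -2.48 (adjusted p = 0.0130) were called too, which made 7 of 10 lower against 23.6% of all genes. Sprr1a went the other way, at 2.20 ± 0.76 (adjusted p = 0.0246): its gate difference was -5.10 in normal glands and -2.90 in tumours. Without pool F its value was 0.92 (adjusted p = 0.254), and without tumour B or E the call was lost as well (adjusted p = 0.0662 and 0.0507). The actin gap differed between the normal gates, with 2.53 ± 0.35 (SD, n = 3) for CD29hiCD24+ against 1.61 ± 0.21 for CD29+CD24+, while the tumour gates had 2.03 and 2.06. With this gap as a covariate the Sprr1a value was 1.25 (adjusted p = 0.247).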

How the data were processed

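Expression was measured on 24 arrays, 5 for each of 3 tumour populations and 3 for each of 3 normal populations. The authors deposited log2 signals for each probe set. RMA, GCRMA and Partek are named, without version or role, in the submitters' processing notes. That the scale is log2 follows from the range, 0.489 to 16.06.

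Of 45101 probe sets 34945 had 1 gene name, 932 several, 9160 none and 64 were controls, and 34741 of the named ones matched a RefSeq gene. A probe set stayed in where 3 or more arrays exceeded 2.83, the 40th percentile over the whole table (24278 did), and the one with the highest mean stood for its gene (13485 of 18193 genes). limma 3.58.1 in R 4.3.3 fitted 1 mean for each of 6 groups, with a variance trend and Benjamini-Hochberg adjustment. It was tested on simulated data with independent noise in each array. That test does not cover arrays that share a tumour or pool. Values after ± are standard errors unless SD is written. The labels call tumours independent and pools independently isolated. The main fit had no block, so arrays of the same tumour or pool entered it as independent. Its p-values therefore mix the spread between and within tumours and pools.

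The 3 populations of a letter share a tumour or pool; 2 titles of pool H carry no letter and were assigned by elimination. Deviations from the group means had a median correlation of 0.578 within tumours (15 array pairs) and -0.167 between them (60), and of 0.142 within pools (9) and -0.0705 between them (18). Replicate-block fits were run as alternatives, as were other filters, quantile normalisation, other probe-set rules, fits of the compared groups alone, a fit without the trend, an actin covariate and leaving out each tumour or pool. Another fit used a description-number block, made from the number in each sample description. It joined tumours A and B, tumours C and D, and tumour E with all pools. Differences of tumours A to D from tumour E or from normal glands cannot be told apart from differences between these blocks.

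The members, lists and tests were chosen with earlier results of these data known. From each list, counts are given and at most the 3 called genes with the largest tumour gate difference, or the 2 with the highest mean if none was called, are named. The alike genes are the 10 with the highest r to the members' mean profile. Promoters came from RefSeq (GRCm38.p6).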

Additional observations from a re-analysis of the deposited data

Results flagged for a closer look

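For 6 of the 10 genes the difference between CD29hiCD24+ and CD29+CD24+ cells was itself different in tumours and normal glands by the interaction term of limma. Of all genes tested 42% were called in either direction, so the count of 6 is not far from that share. By direction, 5 of the 10 genes were called lower, against 19.8% of all genes, and 1 higher, against 22.2%. The genes share their arrays, and no test was made of them as a group. The values, tumour difference minus normal difference on the log2 scale, were -2.95 for Scel, -3.70 for Calm4, -3.23 for Abca12, -3.08 for Asprv1 and -3.48 for Casp14, and 2.20 for Sprr1a. Normal levels of the first 5 genes were in or near the low band in both gates, whereas Sprr1a was at 10.79 ± 0.47 (SD, n = 3) in normal CD29+CD24+ and 5.69 ± 1.89 (SD, n = 3) in normal CD29hiCD24+ cells. Pool F was lowest in the latter, at 3.61. Among groups of 5 arrays no member had a single array that stood apart from the rest by Dixon's criterion.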

How the results depend on the processing

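Over all alternatives 1241 values of single genes kept their direction and side of the threshold, 18 gained a call, 29 lost one and 2 changed sign. The sign changes were of differences near 0: Sprr2d between the tumour gates ranged from -0.59 to 0.051 over the left-out replicates, positive without tumour B, and Ivl between tumour CD29+CD24+ and Lin- cells from -0.99 to 0.00075, positive without tumour D. Members called lower between tumour CD29+CD24+ and Lin- cells numbered 1, not 0, with the replicate block (random) and with the description-number block, Casp14 in each (adjusted p = 0.0285 and 0.0279). Members called higher between the tumour gates ranged from 0 to 1 when a replicate was left out (Ivl without tumour A). In the normal gates the 1 higher call, Asprv1, was 0 with the actin covariate, and ranged from 0 to 1 over the left-out replicates. Between normal CD29+CD24+ and Lin- cells 1 member, Asprv1, was lower with only the groups compared. For the interaction the 1 higher call, Sprr1a, was 0 with only the groups compared and with the actin covariate, and ranged from 0 to 1 over left-out replicates; lower calls ranged from 3 to 6, with 3 without pool F or G, where Calm4 and Casp14 were lost. Casp14 was also lost there without pool H (adjusted p = 0.0756), with the mean of its probe sets (adjusted p = 0.0523) and with the actin covariate (adjusted p = 0.0544). Sprr1b gained a call between the tumour gates without tumour A (adjusted p = 0.0332). The cause of these changes was not tested, beyond the fewer arrays that the left-out fits hold.

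All genes called between the tumour gates numbered 565, but 1817 with the random replicate block, 2087 with the fixed block, 1263 with the description-number block, 149 with only the groups compared and 207 to 565 with a replicate left out. For CD29hiCD24+ against Lin- tumour cells, 1128 became 2400, 2557, 1876, 465 and 469 to 1042 in the same order, and for CD29+CD24+ against Lin- tumour cells 29 became 122, 5, 45, 0 and 0 to 83. The last was also 13 without the filter, 51 with a stricter one, 18 over every kept probe set and 15 without the variance trend. In normal CD29+CD24+ against Lin- cells 565 became 906 with the random block, and in normal CD29hiCD24+ against Lin- cells 5420 became 3491 without pool F. Over every kept probe set, which counts 24278 features, the other comparisons gave 8249 to 10144 calls. Among the 10 most alike genes 1 was shared with those found after removal of population means, and 1 with those found over all 24 arrays. Array number and the low band limit the precision.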
